A study of Mus musculus with 20 samples.

Results

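The 89 genes of the cytoplasmic ribosomal proteins were followed through mouse germ cells with and without a conditional knockout of Chd4, which encodes an ATPase that remodels chromatin in the NuRD complex. They were chosen by symbol, as the rows named Rps or Rpl with a number, Rpsa and Rplp0 to Rplp2, without the rows marked -ps for pseudogenes. They made up 36 genes of the small and 53 of the large ribosomal subunit, out of 53722 genes in the oocyte table and 55291 in the spermatogonia table. By annotation 83 were protein-coding, and 6 were processed pseudogenes that keep a gene-like symbol (Rpl32l, Rpl6l, Rps12l1, Rps3a2, Rps3a3 and Rps4l). Their level was read as TPM, which scales reads by gene length and by library. The values match a gene length over all annotated exons, so comparisons between genes also depend on the annotation.

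RNA-seq was done on 20 libraries in 10 groups of 2. The groups with Ddx4-Cre, a transgene active in germ cells, were DcKO (Chd4 f/-; Ddx4-Cre Tg/+) and Dctrl (Chd4 f/+; Ddx4-Cre Tg/+), so that the controls were heterozygous and also carried Cre. They comprised non-growing oocytes (NGO) at postnatal days 1 and 5 (P1, P5) and undifferentiated spermatogonia at P3. The groups at P10 were GcKO (Chd4 f/f; Gdf9-iCre Tg/+, with Cre active in oocytes) and Gctrl (Chd4 f/f without Cre), in NGO and in growing oocytes (GO). All had a mixed background of C57BL/6, 129S1/Sv and FVB/NJ, and the labels state neither how many animals entered a library nor that replicates came from separate animals. The p-values therefore measure the spread between these libraries, which may be technical.

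A ribosome is built from rRNA and near-equal numbers of each ribosomal protein, and the genes of these proteins are commonly expressed together at high levels. Their mRNAs are known as TOP mRNAs: the transcript begins with a C in a terminal oligopyrimidine tract, through which the kinase mTOR and the RNA-binding protein Larp1 set their translation. Mammalian oocytes build up ribosomes while they grow and then store them for the embryo. Germ cells are also known to use paralogues of some ribosomal proteins, several of them autosomal copies of X-linked genes.

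RefSeq start windows (GRCm38.p6) were found for 64 of the 89 genes and are shown for 8 genes, so that starts with a tract (Rpl35 to Rps27) can be set beside starts without one. Rps27, Rpl39, Rps13 and Rpl10l are also described below by their levels. Each runs from 20 bases before the annotated start to 10 bases from it on, so that the start is base 21. Capitals mark a tract of a C followed by at least 4 C or T that begins between positions -3 and 4 around the start, as far as the window shows it.
Rpl35: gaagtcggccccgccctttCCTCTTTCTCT
Rps6: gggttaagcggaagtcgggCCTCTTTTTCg
Rpl28: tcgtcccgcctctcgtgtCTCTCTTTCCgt
Rpl38: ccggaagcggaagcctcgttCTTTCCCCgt
Rps27: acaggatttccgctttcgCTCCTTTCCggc
Rpl39: ccccccctaagctccgcctctagcgacttc
Rps13: cgcgcgagagcaaacgtcggtgagtggcgt
Rpl10l: agaaatttggcctccattttgcggctggcg
The windows lie at chr2:39005122-39005151 (Rpl35, minus strand), chr4:86857358-86857387 (Rps6, minus), chr7:4792945-4792974 (Rpl28, plus) and chr11:114668560-114668589 (Rpl38, plus). The others lie at chr3:90213639-90213668 (Rps27, minus), chrX:37085213-37085242 (Rpl39, minus), chr7:116334181-116334210 (Rps13, minus) and chr12:66284392-66284421 (Rpl10l, minus).

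Such a tract was present at the start of 26 of the 64 genes (40.6%), against 13.5% of the 27025 genes with a window in the table. The motif CCGGAA, read on both strands (its complement TTCCGG can overlap a tract, as it does in Rps27), occurred within the 250 bases before and 50 bases after the start in 54.7% of the 64 genes and in 16.7% of all genes. TATAAA, also on both strands, occurred in 12.5% of the 64 and 15.7% of all. These matches describe letters only, and RefSeq starts need not be those used in oocytes.

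Chd4 was lower in knockout libraries than in their controls in every pair of groups. It had 4.32 and 1.9 TPM in DcKO against 24.7 and 31.2 TPM in Dctrl at P1, and 8.28 and 4.94 TPM in DcKO against 14.5 and 17.9 TPM in Dctrl at P5. At P10 Chd4 was near the lower end of detection also in controls, with 1.34 and 0.247 TPM in GcKO against 1.63 and 1.85 TPM in Gctrl for NGO, and 0.631 and 1.54 TPM in GcKO against 1.56 and 2.96 TPM in Gctrl for GO. The ranges of replicate values overlapped in none of these pairs, but only the P1 difference passed the test (adjusted p = 0.0136, limma), and its adjusted p was 0.101 and 0.122 without P1 Dctrl replicate 1 or 2 and 0.091 without P1 DcKO replicate 2. In spermatogonia it had 40.2 and 51.7 TPM in DcKO against 248.6 and 286.4 TPM in Dctrl (adjusted p = 0.0671, limma). Recovered depth was 15.33 to 27.01 M reads in oocyte libraries and 18.91 to 30.07 M reads in spermatogonia. The 10 oocyte and germ cell markers summed to 45210 to 113700 TPM in every oocyte library, most of it from the maternal gene Dppa3 alone with 37270 to 105500 TPM, and the list of undifferentiated spermatogonia to 2564 to 3768 TPM in the male libraries.

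Ribosomal protein genes took up less of the transcriptome at each later oocyte stage. In controls the 89 genes summed to 8.93% ± 0.351 of TPM in P1 Dctrl, 7.05% ± 0.00769 in P5 Dctrl, 4.65% ± 0.128 in P10 NGO Gctrl and 1.77% ± 0.141 in GO Gctrl (SD, n = 2 each). The GO control share was 0.198 times the P1 control share. Of the 89 genes, 61 had falling control means over all 4 stages, and 84 had their lowest control mean in GO. Such counts were not made over all genes. No library of one control stage reached the share of a library of the stage before it. Between P5 and P10 the controls also changed from Dctrl to Gctrl. Stage cannot be told apart from Cre line and Chd4 genotype in that step. The order holds for shares of the library only: TPM does not show RNA per cell, and in these bulk samples fewer cells of a type and less RNA per cell cannot be told apart.

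**Figure D1:**
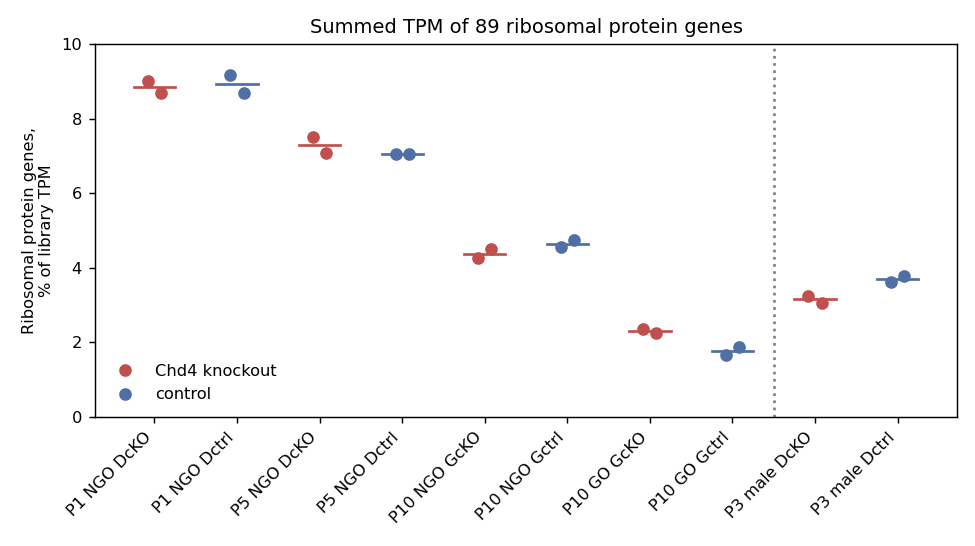
Summed TPM of the 89 ribosomal protein genes as a percentage of each library, in 10 groups. Points are single libraries, bars are means of 2, and the dotted line separates the spermatogonia (P3 male), which were normalised in a table of their own. The 4 GO libraries sit at 1.67% to 2.36%, below all NGO libraries, and the 2 GcKO libraries lie above the 2 Gctrl libraries in GO.

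The knockouts followed the same order, again with a change of Cre line, from DcKO to GcKO, between P5 and P10. The shares in replicates 1 and 2 were 9.01% and 8.67% in P1 DcKO against 9.18% and 8.68% in P1 Dctrl, and 7.495% and 7.085% in P5 DcKO against 7.04% and 7.05% in P5 Dctrl. At P10 they were 4.26% and 4.49% in NGO GcKO against 4.56% and 4.74% in NGO Gctrl, and 2.36% and 2.25% in GO GcKO against 1.67% and 1.87% in GO Gctrl. The P1 libraries overlapped between genotypes. Both P10 NGO GcKO libraries were lower than their controls, and both P5 DcKO and both GO GcKO libraries were higher than theirs, with a ratio of mean shares of 1.31 in GO. Without mitochondrially encoded genes and Dppa3 in the total, the GO means were 2.62% in GcKO and 1.89% in Gctrl. With that same total the P10 NGO libraries overlapped between genotypes, at 4.78% and 5.073% in GcKO against 5.071% and 5.24% in Gctrl. The small subunit held 40.0% to 45.6% of the members' TPM in every library.

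Levels varied widely among the genes. In GO Gctrl the quartiles of the 89 genes were 36.2 and 275.0 TPM around a median of 113.2 TPM, and in P1 Dctrl they were 304.4 and 1064 TPM around 757.4 TPM. The 5 genes with the highest mean over the 16 oocyte libraries were Rpl35 with 3251 TPM, Rplp1, of the ribosomal stalk, with 3117 TPM, Rps27l with 2582 TPM, Rps27 with 2434 TPM and Rpl32 with 2330 TPM. The 5 lowest were Rpl13a, Rpl24, Rps10, Rpl3l and Rps12l1, with means of 4.99, 4.46, 1.63, 1.18 and 0 TPM. Rpl3l is known as a paralogue of striated muscle. Rpl13a, Rpl24 and Rps10 encode core ribosomal proteins, yet the highest values in any of the 20 libraries were 11.2 TPM for Rpl13a, 12.4 TPM for Rpl24 and 16.5 TPM for Rps10. The tables hold 319 more rows with -ps names, and how reads shared between a gene and near-identical copies were counted is not given in the sources used here. The levels of genes with many copies, Rpsa with 12 such rows among them, are uncertain for that reason. Rpl13a, Rpl24 and Rps10 have only 1, 0 and 4 rows with such names. Rpl31 and Rps12 have 24 each, with means of 497.2 and 149.3 TPM over the 16 oocyte libraries. Why Rpl13a, Rpl24 and Rps10 were low was not tested.

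The genes at the top changed with the stage. Between 16 and 18 of the 89 stood among the 100 most abundant genes of a library at P1 and P5, 7 in each P10 NGO GcKO library and 8 in each Gctrl one. In GO they were 2 in each GcKO library and 1 in each Gctrl library. The most abundant member was Rpl35, Rplp1 or Rpl32 in every NGO library and Rps27l in every GO library. In spermatogonia it was Rpl4, whose protein lines the exit tunnel of the ribosome.

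The comparison of growing with non-growing oocytes had the most calls. In GO Gctrl against NGO Gctrl, 77 of the 88 genes that could be tested fell and 3 rose at an adjusted p under 0.05 (90.9% called, limma with Benjamini-Hochberg adjustment over 20470 genes), where 24.3% of all genes were called, 13.2% lower and 11% higher. The median of the 88 was -1.58 on the log2(TPM + 1) scale, against 0 for all genes and -0.73 for the 1603 genes with a mean of at least 100 TPM, of which 64.8% were called. Scaling the libraries by their median gene ratio removes a shift of -0.53 between GO and NGO, after which the median of the 88 was -1.07, that of the highly expressed genes was -0.21, and 58 of the 88 fell and 3 rose. Both subunits were involved, with 32 of 35 small subunit and 45 of 53 large subunit genes lower.

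The deepest fall among the calls was that of Rpl8, a large subunit protein needed for peptide bond formation, which had 50.9 and 36.4 TPM in GO Gctrl against 290.4 and 369.7 TPM in NGO Gctrl. The log2 change was -2.90 ± 0.33 (SE), with an adjusted p of 5.59e-05 (limma). Rpsa, a small subunit protein also known as the laminin receptor, had 14.0 and 10.6 TPM in GO against 86.3 and 102.2 TPM in NGO. The 2 groups were far apart for both genes. Rpl13 fell by 2.83 and Rps3, which lies at the mRNA entry of the small subunit, fell by 2.74 on the log2 scale. Rpl4 had 307.5 and 416.9 TPM in GO against 2205 and 2074 TPM in NGO, a log2 change of -2.58 ± 0.14. Rps3a3 and Rps3a2, annotated as processed pseudogenes, fell by 2.65 and 2.42, beside 2.39 for the parent gene Rps3a1, which is named after its values were seen.

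The 3 genes that rose were Rpl39, Rps13 and Rpl6l. Rpl39, a small X-linked protein of the exit tunnel, had 274.6 and 275.3 TPM in GO Gctrl against 131.9 and 145.6 TPM in NGO Gctrl, a log2 change of 0.98 ± 0.17 with an adjusted p of 0.00113 (limma). Rps13 had 215.2 and 288.0 TPM in GO against 151.2 and 174.7 TPM in NGO (0.61 ± 0.18, adjusted p = 0.0242). Without GO Gctrl replicate 2 its adjusted p was 0.213, and without NGO Gctrl replicate 1 it was 0.123. Rpl6l, annotated as a processed pseudogene, had 15.3 and 19.7 TPM in GO against 6.99 and 5.58 TPM in NGO (adjusted p = 0.00919). Without GO Gctrl replicate 2 it was 0.0737. Neither of the 2 shown windows of these genes, for Rpl39 and Rps13, held a tract by the rule used. That of Rpl39 misses it narrowly, with a run of C and T that begins just before the allowed positions and ends on the annotated start. Over the tested genes with a window, the median log2 change was -1.31 for the 26 with a tract and -1.71 for the 38 without, with ranges of -2.60 to -0.26 and -2.85 to 0.98.

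**Figure D2:**
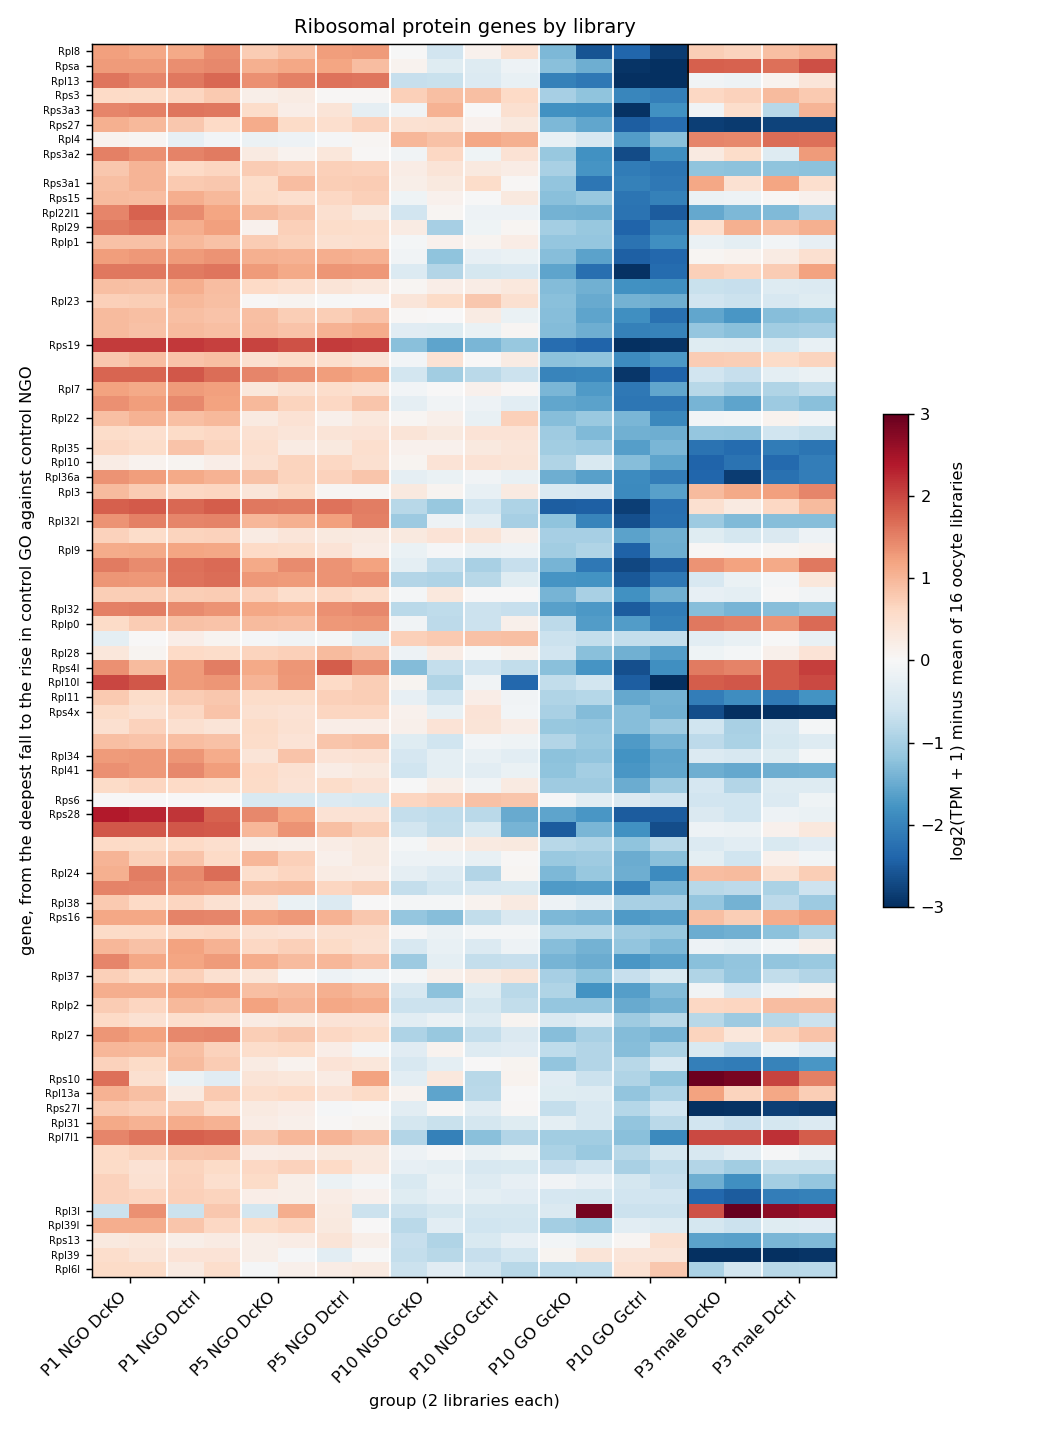
Heat map of log2(TPM + 1) for 84 of the 88 tested genes (rows, with the genes named in the text labelled) in the 20 libraries (columns, 2 per group), each gene centred on its mean over the 16 oocyte libraries and ordered by its change in GO Gctrl against NGO Gctrl. Red is above and blue below that mean, the scale ends at -3 and 3, and the black line sets off the spermatogonia, which were normalised in another table. Most genes are blue in GO, and the 3 genes that rose, Rps13, Rpl39 and Rpl6l, stand in the last rows.

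Other parts of the translation apparatus were measured in the same comparison. In it 24.3% of all genes and 64.8% of genes with a mean of at least 100 TPM were called. Of 21 genes of the ubiquitin fusions and other TOP mRNAs, 13 fell and none rose (61.9%). Of 39 translation factors 21 fell and none rose (53.8%). Eef1a1, the elongation factor that brings tRNA to the ribosome and is on both lists, had 553.2 and 538.6 TPM in GO Gctrl against 2209 and 2079 TPM in NGO Gctrl, a log2 change of -1.97 ± 0.09. Fau, whose product includes the small subunit protein Rps30, fell by 1.497. Of 77 mitochondrial ribosomal protein genes 34 fell and 2 rose, and their summed share of TPM in GO was 0.551 times that in NGO, where the cytoplasmic genes stood at 0.38 times. Of 60 genes of ribosome biogenesis and RNA polymerase I, 20 fell and 1 rose, with Nop16 down by 3.52 and Nop10 down by 2.06. Of 19 mTOR and TOP regulators 3 fell and 1 rose, which at 21.1% is no more than the share of all genes, with falls of 3.06 for Eif4ebp1, a translation repressor controlled by mTOR, and 2.15 for Mtor. Without NGO Gctrl replicate 1 the adjusted p of Mtor was 0.0692.

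A smaller shift had already taken place between P1 and P5. In P5 Dctrl against P1 Dctrl, 22 of the 88 genes fell and 2 rose (27.3%, limma), against 4.7% of all genes (1.98% lower and 2.72% higher) and 20.9% of genes with a mean of at least 100 TPM. The median was -0.36 for the 88 and 0.01 for all genes. Fewer genes were called whichever of the 4 libraries was left out, all of them lower, in fits with only 1 library on a side. The fit of only the groups compared called 45. With median ratio scaling 5 genes were called, all lower.

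Rps28 had the largest fall, with 156.6 and 155.5 TPM in P5 Dctrl against 510.2 and 398.7 TPM in P1 Dctrl (-1.53 ± 0.24, adjusted p = 0.00359, limma). Rpl41, which encodes a very short basic protein, had 1578 and 1649 TPM at P5 against 3667 and 3223 TPM at P1 (-1.09 ± 0.12). The stages did not overlap for either gene. Rpl31, Rpl23, Rpl27, Rpl34 and Rpl7 fell by 1.02 to 0.77 on the log2 scale. The changes of Rpl27, Rpl34 and Rpl7 lost their calls when any 1 of the 4 libraries was left out, and Rps28 had an adjusted p of 0.065 without P1 Dctrl replicate 1. Of the related lists, 3 of 39 translation factors rose and none fell, with a rise of 1.26 for the initiation factor Eif3k. Of 60 biogenesis genes 1 rose, and of 77 mitochondrial ribosomal proteins 2 rose and 3 fell. These are 7.69%, 1.67% and 6.49% of the lists, beside the 4.7% of all genes. The stromal and Leydig markers summed to 1.21 to 3.98 TPM in P5 Dctrl against 10.1 to 15.2 TPM in P1 Dctrl. The granulosa and Sertoli markers summed to 4.47 to 9.01 TPM in P5 Dctrl against 18.0 to 24.7 TPM in P1 Dctrl. Star and Inha were the members of these lists that fell (adjusted p = 0.0137 and 0.0291, limma), and their part in these changes was not tested.

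Knockouts were compared with their controls in 5 cell groups. No ribosomal protein gene passed the test in NGO at P1 or P5 or in spermatogonia, 1 did in NGO at P10, and 38 did in GO at P10. The share of all tested genes called was 1.7% at P1, 1.36% at P5, 1.92% in P10 NGO, 13.8% in GO and 0% in spermatogonia (limma, adjusted p under 0.05).

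**Figure D3:**
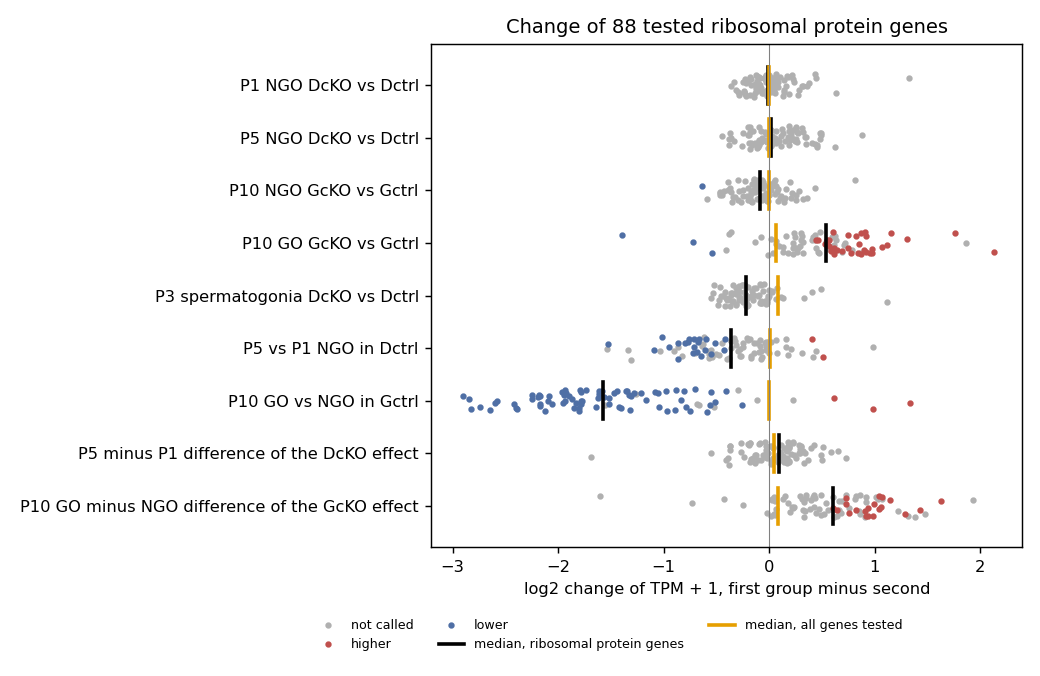
Log2 change of the 88 tested ribosomal protein genes in 9 comparisons, first group minus second. Dots are genes (red and blue for calls by limma), black bars their median and orange bars the median of all genes tested. The medians stand at -1.58 in GO against NGO controls and at 0.54 in GO GcKO against Gctrl, and within 0.1 of 0 in the knockout comparisons of NGO.

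In P1 DcKO against Dctrl the 88 changes had a median of -0.01, 3 had an unadjusted p under 0.05, and voom on the recovered reads called 2. In P5 DcKO against Dctrl the median was 0.02, 10 had an unadjusted p under 0.05, and voom called 2. The difference between the 2 DcKO effects was past the test for 0 of the 88 genes (6 at an unadjusted p under 0.05, 2 by voom) and for 0.313% of all genes. Missing the threshold does not show that levels were alike. In the same NGO groups, Eef1a1 fell at P5, with 1240 and 1241 TPM in DcKO against 1758 and 1809 TPM in Dctrl (-0.52 ± 0.09, adjusted p = 0.0212, limma). The adjusted p of Eef1a1 was 0.182 without P5 Dctrl replicate 2, 0.0999 without P5 DcKO replicate 1, 0.145 without P5 DcKO replicate 2 and 0.199 with median ratio scaling. The granulosa and Sertoli markers summed to 23.1 and 59.9 TPM in P5 DcKO against 9.01 and 4.47 TPM in P5 Dctrl, and Inha was the 1 of 6 tested that rose (adjusted p = 0.0174, limma). Their part in the P5 values was not tested. No gene of the biogenesis and mTOR lists passed at P1 or P5, and of the mitochondrial ribosomal proteins only Mrpl24 at P1 did, with a fall of 0.82 that lost its call when any 1 of the 4 libraries was left out.

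In P10 NGO the single call was Rps16, a small subunit protein, with 132.5 and 123.2 TPM in GcKO against 179.9 and 221.2 TPM in Gctrl (-0.64 ± 0.14, adjusted p = 0.0461, limma), where 1.92% of all genes were called and 0.899% were called lower. Of the 88 genes 61 had a change below 0 and their median was -0.09. Median ratio scaling moved that median to 0.00 and removed the call. Leaving out a library gave 2 and 0 calls without Gctrl replicate 1 or 2, and 4 and 0 calls without GcKO replicate 1 or 2.

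In P10 GO many of these genes differed between GcKO and Gctrl, mostly with higher levels in GcKO. Only GcKO carried Cre, so that Cre and the loss of Chd4 cannot be told apart here. In GcKO against Gctrl, 35 of the 88 rose and 3 fell (43.2%, limma), where 13.8% of all genes and 35.2% of genes with a mean of at least 100 TPM were called. Rises made up 9.12% and falls 4.69% of all genes. The median was 0.54 for the 88, 0.06 for all genes and 0.30 for the highly expressed genes. The libraries of 65 genes lay apart and higher in GcKO and those of 6 lay apart and lower, against 30.3% and 18% of all genes. Of the small subunit 13 rose and none fell, and of the large subunit 22 rose and 3 fell.

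The size of this rise depends on the scaling. Median ratio scaling removes a shift of 0.30 between the 2 groups, after which the median of the 88 was 0.26, that of highly expressed genes was 0.00, and 8 genes rose and 5 fell. The number called was 19 and 25 without Gctrl replicate 1 or 2, and 21 and 29 without GcKO replicate 1 or 2. Rises outnumbered falls in each of these fits. The summed markers of granulosa, Sertoli, stromal and Leydig cells were higher in GcKO as well, although no single one passed the test (limma). The 10 granulosa and Sertoli markers summed to 10.3 and 10.7 TPM in GcKO against 2.28 and 0.501 TPM in Gctrl, and 3 and 5 of them were at 0 in GcKO against 6 and 7 in Gctrl. The 8 stromal and Leydig markers summed to 3.00 and 7.48 TPM in GcKO against 0.253 and 0.516 TPM in Gctrl. The 4 endothelial markers showed no such shift, with sums of 102.3 and 2.78 TPM in GcKO against 6.64 and 2.96 TPM in Gctrl. Of the 3 tested, 1 had a change above 0 and 1 a change below 0. The high sum came mostly from Pecam1, with 98.6 and 2.30 TPM in GcKO against 3.23 and 1.01 TPM in Gctrl. Of the 10 oocyte and germ cell markers 4 rose (Dppa3, Sohlh1, Figla and Nobox) and none fell. Dppa3 had 94340 and 105500 TPM in GcKO against 45240 and 46800 TPM in Gctrl, whereas Dazl had 352.3 and 213.4 TPM in GcKO against 437.5 and 454.7 TPM in Gctrl. The part of these markers in the result was not tested.

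Rpl10l, an autosomal retrogene of the X-linked Rpl10 that is known to be needed for male meiosis in mice, had the largest rise. It had 86.3 and 98.0 TPM in GO GcKO against 25.5 and 15.97 TPM in GO Gctrl, a log2 change of 2.13 ± 0.55 with an adjusted p of 0.0217 (limma). Leaving out any 1 of the 4 libraries took it past the threshold, with adjusted p-values of 0.0507 to 0.148. Rpsa had 47.1 and 40.7 TPM in GcKO against 14.0 and 10.6 TPM in Gctrl (1.76 ± 0.22, adjusted p = 0.000245). Rpl3, which reaches towards the catalytic centre, had 91.3 and 89.3 TPM in GcKO against 32.3 and 40.0 TPM in Gctrl (1.30 ± 0.21). For all 3 genes the lowest GcKO library was above the highest Gctrl library.

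Among the genes of higher level, Rpl4 had 851.3 and 709.1 TPM in GO GcKO against 307.5 and 416.9 TPM in GO Gctrl (1.12 ± 0.14, adjusted p = 0.00025, limma). Rpl29, Rpl13 and Rpl9 rose by 1.15, 1.07 and 0.97 on the log2 scale. The adjusted p of Rpl29 was 0.0671 to 0.197 when any 1 library was left out, and that of Rpl9 was 0.118 without Gctrl replicate 1 and 0.0834 without GcKO replicate 2. The abundant genes Rpl35, Rplp1 and Rpl32 rose by 0.44, 0.87 and 0.61. The 3 genes that fell were Rpl6l, Rpl39l and Rpl37. Rpl39l, a testis-enriched paralogue of Rpl39, had 262.3 and 247.3 TPM in GcKO against 428.9 and 411.5 TPM in Gctrl (-0.72 ± 0.16, adjusted p = 0.0098). Without Gctrl replicate 1 its adjusted p was 0.0622. Rpl37 had 292.3 and 253.6 TPM in GcKO against 366.3 and 430.9 TPM in Gctrl (-0.54 ± 0.16, adjusted p = 0.037), and of the fits that leave out 1 of the 4 libraries it passed only in that without GcKO replicate 1. Rpl6l fell by 1.39, with an adjusted p of 0.0974 without Gctrl replicate 2.

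**Figure D4:**
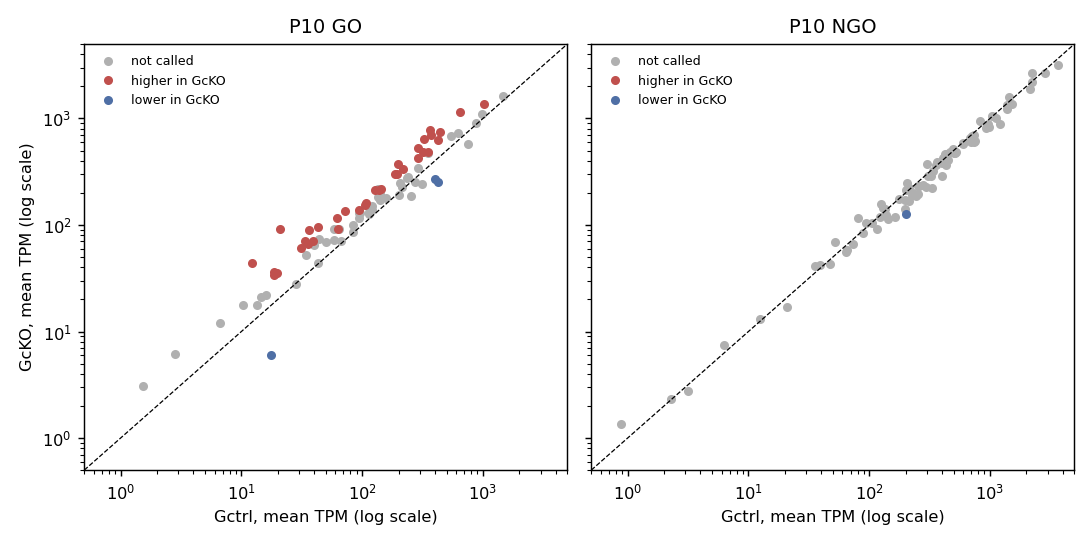
Mean TPM of each ribosomal protein gene in GcKO (vertical, log scale) against Gctrl (horizontal, log scale) in P10 GO (left) and P10 NGO (right). Points are genes, coloured by the limma call, and the dashed line marks equal levels. In GO 35 genes are called higher and 3 lower in GcKO, and in NGO 1 gene is called lower.

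The GcKO effect was then compared between GO and NGO in 1 fit, as a difference of differences. It was larger in GO for 20 of the 88 genes and smaller for none (22.7%, limma), against 7.46% of all genes, with 4.84% larger in GO, and 20.9% of genes with a mean of at least 100 TPM. Among the called genes reported here, the largest differences of effect on the log2 scale were 1.63 for Rpsa, 1.43 for Rpl13 and 1.29 for Rpl4. Over all 88 genes the differences reached 1.93. They were followed by 1.15 for Rpl3, 1.07 for Rpl11, 1.06 for Rps15 and 1.04 for Rps19. Rpl3 and Rps19 lost their calls in 5 of the 8 fits that each leave out 1 library. Rpl11 is known for binding Mdm2 and Rps19 is the gene most often mutated in Diamond-Blackfan anaemia in humans. In NGO itself Rpsa had 121.8 and 87.6 TPM in GcKO against 86.3 and 102.2 TPM in Gctrl, and Rpl4 had 1971 and 1835 TPM in GcKO against 2205 and 2074 TPM in Gctrl. The genotypes overlapped there for Rpsa, while Rpl4 was lower in both NGO GcKO libraries.

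These counts rest on few libraries as well. Median ratio scaling left 3 genes with a larger and 1 with a smaller effect in GO. Leaving out NGO Gctrl replicate 2 gave 12 calls, and leaving out GO Gctrl replicate 1 gave 11. The fit of only the P10 groups called none of the 88, with 25 at an unadjusted p under 0.05 (limma), and voom on all groups called 8. This comparison, that of GO GcKO with GO Gctrl and that of GO Gctrl with NGO Gctrl share control libraries, so their results are not independent of each other. In spite of the rises, the GO GcKO mean was below that of NGO GcKO for 81 of the 89 genes. The mean share of TPM in GO GcKO was 0.527 times that in NGO GcKO. The count of genes with a lower mean was not made over all genes. The stage comparison in the knockouts was not tested.

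Related lists were counted in GO GcKO too, where 13.8% of all genes and 35.2% of genes with a mean of at least 100 TPM were called. Called were 23.1% of the translation factors, 23.8% of the ubiquitin fusions and other TOP mRNAs and 18.2% of the mitochondrial ribosomal proteins. Of 39 translation factors 9 rose and none fell, and of 21 ubiquitin fusions and other TOP mRNAs 4 rose and 1 fell, Snhg6, a TOP transcript that hosts a small nucleolar RNA and is named after its values were seen. Eef1a1 had 1151 and 1005 TPM in GO GcKO against 553.2 and 538.6 TPM in GO Gctrl (0.98 ± 0.09), and Fau rose by 0.66. Of the 19 genes of the mTOR list 2 rose and none fell (10.5%). Eif4ebp1 rose by 2.33, with 19.96 and 13.1 TPM in GcKO against 2.28 and 2.56 TPM in Gctrl, and Cnbp, which binds TOP mRNAs, rose by 0.57. Cnbp had adjusted p-values of 0.0907 and 0.0608 without Gctrl replicate 1 or 2 and of 0.0858 without GcKO replicate 2. With median ratio scaling Fau and Cnbp were not called. Of 60 biogenesis and RNA polymerase I genes 7 rose and 3 fell, a share of 16.7% that is near that of all genes. Nop16 and Nop56, of the nucleolus, rose by 3.18 and 1.95, and Dkc1, the pseudouridine synthase of rRNA, fell by 2.07. Of 77 mitochondrial ribosomal proteins 11 rose, such as Mrpl28 by 1.18, and 3 fell, such as Mrps18c by 0.93. The medians of these lists were 0.24, 0.24, 0.47, 0.20 and 0.49, beside 0.54 for the cytoplasmic ribosomal proteins. That of the genes with a mean of at least 100 TPM was 0.30.

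The spermatogonia were normalised in another table, so that their levels can be set beside those of oocytes but were not tested against them. The 89 genes summed to 3.25% and 3.07% of TPM in P3 DcKO against 3.62% and 3.77% in P3 Dctrl, and the libraries did not overlap. None of the 88 genes passed the test in DcKO against Dctrl (limma), as none of the 18671 genes tested did. At an unadjusted p under 0.05 there were 17, and voom called 0. Of the 88, 76 had a change below 0, and 57 had both DcKO libraries below both Dctrl libraries, against 18% of all genes. The median was -0.22 for the 88, 0.09 for all genes and -0.06 for genes with a mean of at least 100 TPM.

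Some markers of other cells were higher in DcKO, none of them past the test. The 8 stromal and Leydig markers summed to 43.6 to 47.5 TPM in DcKO against 13.4 to 13.5 TPM in Dctrl, and the endothelial markers to 43.6 to 45.6 TPM in DcKO against 22.3 to 22.7 TPM in Dctrl. Of the blood list, the macrophage gene Cd68 had 63.3 and 97.0 TPM in DcKO against 26.2 and 37.7 TPM in Dctrl, while Ptprc, found on all white blood cells, was at 0 in both DcKO libraries against 0.447 and 0.0126 TPM in Dctrl. Col1a1 gave 24.1 and 27.4 TPM of the stromal sum in DcKO against 5.60 and 7.81 TPM in Dctrl. The granulosa and Sertoli markers summed to 110.1 to 118.5 TPM in DcKO against 64.2 to 120 TPM in Dctrl. Of the 10 markers of undifferentiated spermatogonia, 8 had a change below 0 and 2 a change above 0, with a median of -0.24 and none past the test. Both DcKO libraries were below both Dctrl libraries for 5 of them and above for 0, where 18% of all genes were lower in this way. The part of these markers in the lower ribosomal protein level was not tested.

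Several members are paralogues of one another, and each pair is described by the paralogue's share of the pair's TPM, with no test of the share. These shares also rest on the annotated exon lengths, such as 816 bases for Rps27l and 1043 for Rps27. In recovered reads, before division by length, Rps27 stood above Rps27l in P1 Dctrl (26690 and 24123 against 25814 and 22795). Likewise Rpl39 stood above Rpl39l in GO Gctrl (2992 and 2948 against 2708 and 2553). In the Rps27 pair, Rps27l, a paralogue known as a target of p53, made up 79.9% ± 0.305 of the pair's TPM in GO Gctrl, 49.6% ± 2.63 in P10 NGO Gctrl, 44.8% ± 1.93 in P5 Dctrl and 55.0% ± 0.409 in P1 Dctrl (SD, n = 2 each). Rps27 had 344.6 and 395.1 TPM in GO Gctrl against 2119 and 2362 TPM in NGO Gctrl (-2.60 ± 0.16). Rps27l had 1350 and 1590 TPM in GO Gctrl against 1933 and 2500 TPM in NGO Gctrl (-0.59 ± 0.15, adjusted p = 0.0131), and its change was -0.05 after median ratio scaling. The adjusted p of Rps27l was 0.127 without NGO Gctrl replicate 2 and 0.112 without GO Gctrl replicate 1. In GO GcKO Rps27 rose by 0.92 and Rps27l differed by 0.13, and Rps27l held 69.5% ± 4.82 of the pair in GcKO. The rise of Rps27 lost its call with median ratio scaling (0.63, adjusted p = 0.0892), without a trend (adjusted p = 0.0524, limma) and with voom (adjusted p = 0.429).

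In the Rpl39 pair the course was the other way round. Rpl39l held 60.4% ± 0.743 of the pair in GO Gctrl, 72.2% ± 1.01 in P10 NGO Gctrl, 75.7% ± 5.22 in P5 Dctrl and 75.8% ± 1.83 in P1 Dctrl. In GO GcKO it held 50.4% ± 4.80. In spermatogonia Rpl39 was at 25.6 and 18.6 TPM in DcKO against 23.5 and 27.0 TPM in Dctrl, and Rpl39l at 371.6 and 342.2 TPM in DcKO against 416.7 and 421.4 TPM in Dctrl. There the paralogue held 94.2% of the pair in DcKO and 94.3% in Dctrl.

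Rpl10l, like Rpl39l, held most of its pair in the spermatogonia table. Rpl10l held 88.5% ± 0.725 of the pair in DcKO and 88.2% ± 0.724 in Dctrl spermatogonia. In oocytes of the same Cre line it held 59.3% ± 0.227 in DcKO and 48.9% ± 0.768 in Dctrl at P1, and 39.3% ± 0.947 in DcKO and 31.7% ± 2.95 in Dctrl at P5. In P10 NGO the 2 replicates of a group differed widely, with 14.5% to 30.1% in GcKO and 5.88% to 22.8% in Gctrl. In GO it held 30.3% ± 2.75 in GcKO and 13.9% ± 2.11 in Gctrl. The X-linked parent Rpl10 also rose in GO GcKO, by 0.75 ± 0.18 (adjusted p = 0.0174, limma), with 181.4 and 247.5 TPM in GcKO against 140.4 and 113.1 TPM in Gctrl. Its adjusted p was 0.137 without Gctrl replicate 2 and 0.124 without GcKO replicate 2.

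**Figure D5:**
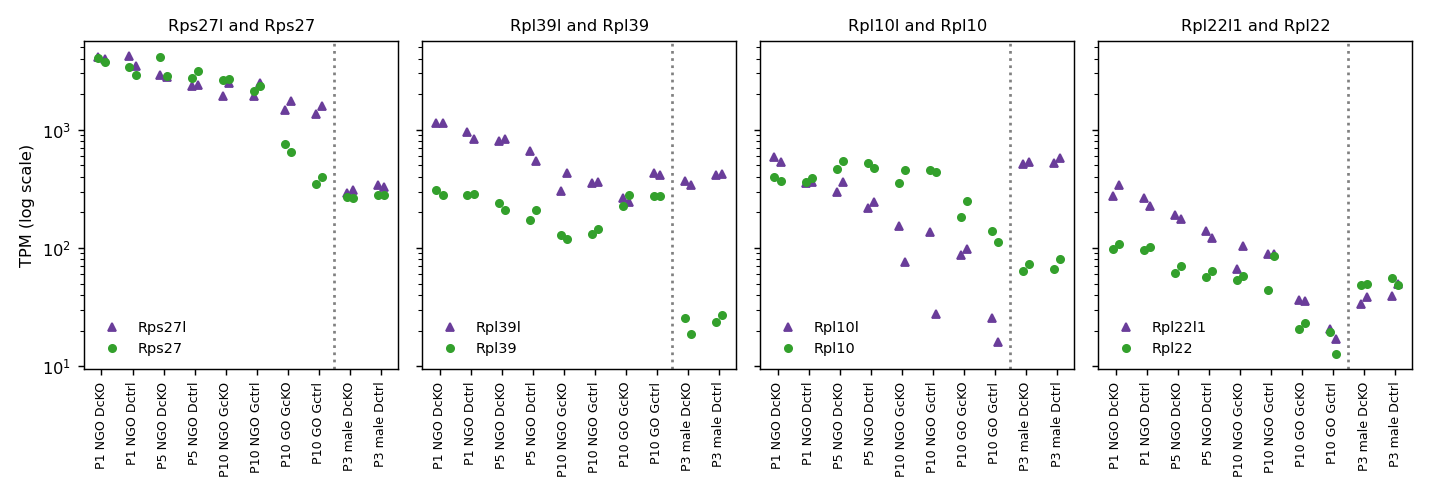
TPM (log scale) of 4 paralogue pairs in the 10 groups, 2 libraries each. Triangles are the paralogues Rps27l, Rpl39l, Rpl10l and Rpl22l1, circles their parents, and the dotted line sets off the spermatogonia. Rps27 lies furthest below Rps27l in GO and is also below it at P1 and in spermatogonia, Rpl39 is far below Rpl39l in spermatogonia, and Rpl10 lies above Rpl10l in P10 oocytes and below it in spermatogonia.

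The other pairs are given by their levels. Rpl22l1, the paralogue of Rpl22, had 276.8 and 338.5 TPM in P1 DcKO against 264.7 and 225.7 TPM in P1 Dctrl, and 36.6 and 35.6 TPM in GO GcKO against 20.7 and 16.8 TPM in GO Gctrl (0.91 ± 0.24, adjusted p = 0.0235, limma). With median ratio scaling the GO change of Rpl22l1 was 0.64 with an adjusted p of 0.233, and it was 0.146 without Gctrl replicate 2, 0.0772 without GcKO replicate 1 and 0.0661 without GcKO replicate 2. Rpl7l1 held 40.5% of its pair with Rpl7 in DcKO and 39.1% in Dctrl spermatogonia, and at most 13.8% in any oocyte library. Rps4l, annotated as a transcribed processed pseudogene, held 86.2% of its pair with the X-linked Rps4x in DcKO and 92.2% in Dctrl spermatogonia, and 31.9% in DcKO and 32.1% in Dctrl oocytes at P1. Rpl3l was at 0.162 and 10.4 TPM in GO GcKO and listed at 0 in both GO Gctrl libraries. Rpl36a had 136.1 and 120.9 TPM in GO GcKO against 102.4 and 89.3 TPM in GO Gctrl, and Rpl36al, which the rule does not include, had 13.8 and 6.27 TPM in GO GcKO against 8.17 and 8.41 TPM in GO Gctrl. Of the 4 X-linked members Rpl10, Rpl36a, Rpl39 and Rps4x, Rpl10 alone passed the test in GO GcKO.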

How the data were processed

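RNA-seq of 20 libraries was analysed from the authors' deposited TPM values, in 1 table for the 16 oocyte and 1 for the 4 spermatogonia libraries. Per the submitters' processing notes, Trimmomatic 0.39, STAR 2.5.4b, SAMtools 1.9 and featureCounts 2.0.1 were used with GRCm38; annotation, strand setting, multi-mapping reads and the making of TPM were not given in the sources used here. Reads recovered from TPM and GENCODE M21 exon lengths were whole within 0.05 for 98.67% to 99.19% of values under 20 reads, and give the depths stated. Genes with TPM of at least 1 in 2 libraries were tested on log2(TPM + 1), which understates the changes of low genes, with limma 3.58.1 in R 4.3.3 (eBayes with trend, two-sided, Benjamini-Hochberg over all genes tested, threshold 0.05). All 16 oocyte libraries shared 1 estimate of spread, with 8 residual degrees of freedom, and spermatogonia were fitted alone. A call means an adjusted p under the threshold. The script was tested on simulated data. The members, the lists and the tests were chosen with earlier results of these data known. Named genes are, per comparison, the called members that changed most (up to 8 in each direction), the fixed paralogue pairs, the 5 highest and 5 lowest members, Chd4, and up to 3 genes per related list with the smallest p. Some genes named by this rule are not reported here. A gene that passed the filter only in the group where it is high had to differ; 88 of 89 members passed, all but Rps12l1, which was at 0. Start windows come from RefSeq. Alternatives were the pseudocount, filter, scaling, trend, replicate block, the groups in the fit, single libraries left out and, chosen after seeing the data, voom on recovered reads. Tables and figures were made in Python 3.11.15 (numpy 2.4.6, pandas 2.3.3, matplotlib 3.10.9).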

Additional observations from a re-analysis of the deposited data

Results flagged for a closer look

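The GcKO effect differed between GO and NGO at P10 for 20 of the 88 tested ribosomal protein genes (22.7%), by limma's test of the difference itself, against 7.46% of all genes and 20.9% of genes with a mean of at least 100 TPM. The share is thus near that of the highly expressed genes. The count was 4 with median ratio scaling, 3 without a trend and 0 with only the P10 groups in the fit. On the log2 scale the effect in GO exceeded that in NGO by 1.63 for Rpsa, 1.43 for Rpl13, 1.29 for Rpl4, 1.15 for Rpl3, 1.07 for Rpl11, 1.06 for Rps15 and 1.04 for Rps19.

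The summed share of TPM differed in direction between the 2 P10 cell types, which was not tested. Both GcKO libraries were higher than both Gctrl libraries in GO, with a ratio of the means of 1.31, and both were lower in NGO, with a ratio of 0.941. The NGO order depends on the total. Without mitochondrially encoded genes and Dppa3 the NGO libraries overlapped, at 4.78% and 5.073% in GcKO against 5.071% and 5.24% in Gctrl.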

How the results depend on the processing

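The number of ribosomal protein genes called in GO against NGO controls was 61 to 82 under every alternative, against 80. In GO GcKO against Gctrl it was 38, and 13 with median ratio scaling, 22 with the replicate number as a block, and 11 each without a trend, with voom and with only the groups compared. In P5 against P1 controls it was 24, and 5 with median ratio scaling, 10 with the block, 2 without a trend and 45 with only the groups compared. For the difference of the GcKO effect it was 20, and 4 with median ratio scaling, 9 with the block, 3 without a trend, 8 with voom and 0 with only the groups compared (25 at an unadjusted p under 0.05 in limma). The single call in P10 NGO GcKO became 0 without a filter, with median ratio scaling, with the block, without a trend, with voom and with only the groups compared (9, 1, 6, 1, 9 and 0 at an unadjusted p under 0.05). Voom gave 2 calls in P1 DcKO, 2 in P5 DcKO and 2 in the difference of those effects, and the fit of only the P1 groups gave 1 in P1 DcKO. The causes were not tested, and the fits of the compared groups also hold fewer libraries. Leaving out 1 library gave 19 to 29 calls in GO GcKO, 5 to 8 in P5 against P1, 73 to 76 in GO against NGO, 11 to 24 in the difference of the GcKO effect and 0 to 4 in P10 NGO. It gave 0 to 0 in each of P1 DcKO, P5 DcKO, spermatogonia and the difference of the DcKO effect. The median of P10 NGO GcKO turned positive, at 0.001, with median ratio scaling. For single named genes, 3806 alternatives kept direction and side of the threshold, 321 lost the call and 65 gained it. Replicate numbers pair no samples by the labels, and deviations of equally numbered libraries correlated at -0.049 to 0.045, so the block result says only that the counts move with it. With 2 libraries a group, a lone library is assumed to vary like the other groups when its partner is left out, and depth limits the genes under a few TPM.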
